A study of Mus musculus with 8 samples.

Results

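The smooth muscle contractile genes were 35 genes that encode the actin and myosin filaments of smooth muscle, the proteins that anchor and switch them, and proteins of its calcium store. All 35 were found among the 23361 genes of the deposited table, and the list was drawn up by symbol with earlier results of these data known. Their expression was measured by RNA sequencing of bulk tissue in 5 mouse cancers of the gastric squamous-columnar junction (SCJ), the border between squamous forestomach and glandular stomach, and in 3 control samples of the same junction. The cancers had the genotype Trp53-/-Rb1-/-. They arose in mice with floxed Trp53 and Rb1 (loxP/loxP), the Lgr5 eGFP-Ires-CreERT2 allele and the Ai9 reporter after tamoxifen, and were cut out along the border of tdTomato fluorescence. Cre was made from the Lgr5 locus, which is active in epithelial stem cells, so that muscle, vessels and other host tissue inside a cancer need not carry the deletions. The controls were wild type SCJ from mice of paired age. The labels give no age, sex or batch, and the study's methods say that control mice of the tumor induction were also given tamoxifen, without saying whether these included the wild type controls sequenced here. The groups differed in the floxed alleles, Cre and the reporter as well as in the tumor.

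Smooth muscle contracts when calcium and calmodulin activate myosin light chain kinase, which phosphorylates the regulatory light chain of myosin, and it relaxes when myosin phosphatase removes that phosphate. Its thin filaments are held in dense bodies and at plaques on the membrane, the counterparts of the Z-line and the cell attachments of striated muscle. In the stomach these genes are known from the outer muscle layers, the muscularis mucosae and vessel walls, and some are shared with pericytes, myofibroblasts and many nonmuscle cells, among them Tpm1, Cald1, Actn1, Flna, Vcl, Csrp1 and Fhl1. The values are per gene and do not separate muscle from nonmuscle isoforms. In bulk tissue, fewer smooth muscle cells and less RNA per cell cannot be told apart.

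Expression was given as FPKM, fragments per kilobase of transcript relative to the fragments of the library, so levels can be set side by side between genes of a library. How libraries were scaled to each other is not given in the sources used here, and directions between groups depend on that scale. The deposited FPKM were whole numbers, so a gene near 1 moves in large steps and a gene listed at 0 may still have been transcribed. Depth per library is unknown. The sum of FPKM over all genes was between 403569 and 573858 in the cancers and between 887141 and 992550 in the controls. The 14357 genes that reached FPKM 1 in at least 3 libraries were compared on log2(FPKM + 1) with limma, a linear model with moderated errors, and were called at a Benjamini-Hochberg adjusted p under 0.05. A fold change on this scale understates the change of low genes. The labels do not say how the samples were drawn from animals, so p-values measure the spread between these samples. Of the targeted genes, Rb1 had 4, 4, 5, 6 and 4 FPKM in cancers 1 to 5 and 9, 9 and 10 in controls 1 to 3, below every control in every cancer. Trp53 had 12, 22, 12, 30 and 12 FPKM in the cancers against 16, 17 and 19 in the controls, with overlapping groups. Its log2 fold change was -0.08 (limma adjusted p = 0.87), whereas with TPM, in which each library is rescaled to the same sum, it was 0.86 and past the threshold as higher in the cancers (limma adjusted p = 0.020). The log2 fold change of Rb1 was -0.90 (limma adjusted p = 0.0059), or -0.05 with TPM.

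Of the 35 contractile genes, 34 had enough signal to be tested, and in limma most were not past the threshold. The log2 fold change was negative for 27 of the 34 and positive for 7, where it was negative for 7427 of all 14357 genes tested. With TPM it turned positive for 14 of the 27, Acta2, Tagln, Myh11, Mylk and Des among them. Of the 34, 4 were called higher in the cancers, against 16.2% of all genes tested, and 3 were lower, against 18.3% of all genes tested. The higher genes were Cald1, Actn1, Ldb3 and Hspb8, and the lower ones Fhl1, Ppp1r14a and Casq2. Ldb3 was at 0 in every control and therefore had to be higher to be tested. Casq2 reached FPKM 1 in only 1 cancer, cancer 2, and passed the filter through the controls. The genes best known as smooth muscle markers, Acta2, Actg2, Myh11, Cnn1, Tagln and Des, were not past the threshold. The median log2 fold change was -0.67 over the 34 genes and -0.04 over all genes tested. With TPM the medians were 0.15 and 0.81, so the contractile genes stood below the median of all genes by 0.66 with TPM and by 0.63 on the deposited scale. Single cancers moved this distance, which was 0.10 without cancer 1, 0.25 without cancer 5 and 1.08 without cancer 2, and it was 0.31 with the replicate block. This block adds a term for the sample number, and cancers 4 and 5 share theirs with no control, so they drop out of its difference. Every cancer lay on one side of every control for 6 of the 34 genes, Ldb3 included, where 34.1% of all genes tested had such a split. In contrast, the 3 controls all lay within the range of the 5 cancers for 20 of the 34 genes, and for 13.0% of all genes tested.

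**Figure D1:**
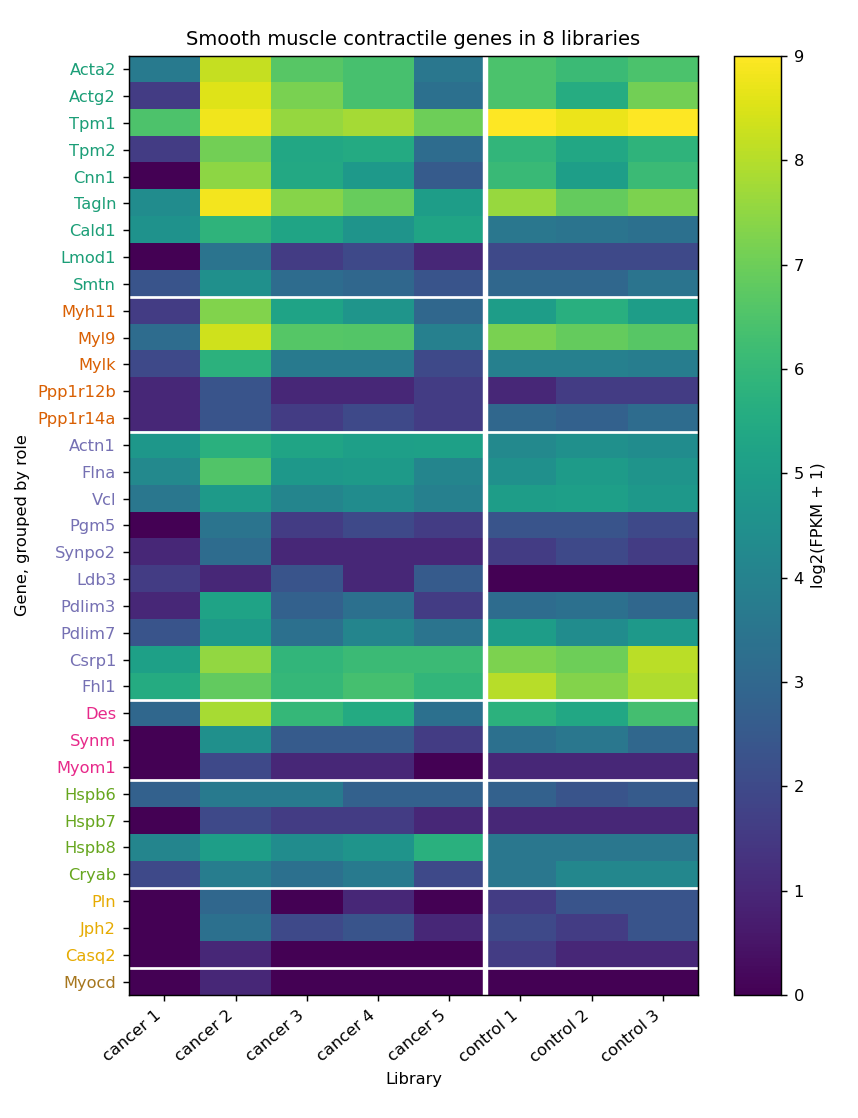
Expression of the 35 smooth muscle contractile genes as log2(FPKM + 1), on the color scale, in 5 cancers and 3 controls (columns). Horizontal white lines and label colors separate 7 groups by role, from the top thin filament, myosin, dense body and adhesion, intermediate filament, small heat shock protein, sarcoplasmic reticulum and coactivator, and the vertical line separates the groups of libraries. Cancer 2 is brightest among the cancers in most rows, and cancers 1 and 5 are darkest in many.

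Of the 9 thin filament genes, 1 was higher in the cancers, and 8 were not past the threshold. Acta2 (chr19:34240336-34255373, mm10), alpha smooth muscle actin, had 12, 295, 101, 83 and 11 FPKM in cancers 1 to 5 and 86, 69 and 87 in controls 1 to 3. Cancer 2 lay 3.66-fold above the control mean, and the control mean lay 7.33-fold above cancer 5, so that the controls sat inside the range of the cancers. The group means were 100.4 ± 116 FPKM (SD, n = 5) and 80.7 ± 10.1 FPKM (SD, n = 3), and the log2 fold change of -0.63 (standard error, SE, 1.06, limma adjusted p = 0.66) was smaller than the spread between cancers.

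Actg2 (chr6:83512909-83536251, mm10), the gamma actin of visceral smooth muscle, had 2, 379, 144, 82 and 9 FPKM in the cancers against 87, 47 and 136 in the controls. Among the contractile genes above 0 in every cancer it spanned the widest range of FPKM, with the highest cancer 189.5-fold above the lowest (log2 fold change between groups -0.97, SE 1.54, limma adjusted p = 0.64). Both actins are nearly identical proteins, and the ends of their coding sequences are shown because reads can be told apart only where the bases differ. The last 60 coding bases, with the stop codon, are printed from GENCODE M21 transcripts (GRCm38, minus strand in each case), with cytoplasmic Actb for scale and with capitals at each base that differs from Acta2. They lie at chr19:34241667-34241726 for Acta2, chr6:83512985-83513044 for Actg2 and chr5:142903798-142903857 for Actb.
Acta2: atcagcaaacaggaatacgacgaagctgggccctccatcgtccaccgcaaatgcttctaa
Actg2: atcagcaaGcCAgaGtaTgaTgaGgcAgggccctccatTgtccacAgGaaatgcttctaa
Actb: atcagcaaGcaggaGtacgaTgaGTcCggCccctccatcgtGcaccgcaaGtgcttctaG
Actg2 differed from Acta2 at 11 of these 60 bases and Actb at 10. Over whole transcripts, 0.326% of the 50-base stretches of Acta2 and 0 of those of Actg2 were found in another gene. Among all 35 genes this share was highest for Hspb6, at 1.22%, so few reads of that length could be shared between genes.

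The other thin filament genes bind actin along its length. Tagln, transgelin, had 20, 462, 163, 119 and 31 FPKM in the cancers against 196, 116 and 148 in the controls. Cnn1, calponin, was listed at 0 in cancer 1, at 178 in cancer 2 and at 42, 28 and 5 in cancers 3 to 5, and had FPKM of 67, 32 and 69 in the controls. For both, the controls lay inside the range of the cancers, and neither was past the threshold (Tagln adjusted p = 0.57, Cnn1 adjusted p = 0.40, limma). The deposited locus of Cnn1 spans 333.747 kb, against 10.001 kb for the gene in RefSeq, and that of Tagln 72.368 kb against 6.431 kb, and the part of neighbouring sequence in their values was not tested.

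Tropomyosins lie along the thin filament and set the access of myosin to actin. Tpm1 was the most abundant contractile gene in the controls, with FPKM of 536, 423 and 504, and had 88, 451, 188, 221 and 128 in the cancers. Cancer 2 alone reached into the control range, and the log2 fold change was -1.39 (SE 0.48, limma adjusted p = 0.056). Without cancer 2 it was -1.71 and past the threshold (limma adjusted p = 0.011). Tpm2, the beta tropomyosin of muscle, had 2, 135, 41, 44 and 8 FPKM in the cancers against 59, 41 and 57 in the controls (limma adjusted p = 0.44). In a pair of low genes cancer 2 was also the highest cancer and cancers 1 and 5 the lowest. Lmod1, leiomodin, an actin nucleator of smooth muscle, was at 0, 10, 2, 3 and 1 in the cancers and at 3 in each control, and Smtn, smoothelin, was at 4, 22, 8, 7 and 4 and at 7, 7 and 10.

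Cald1 (chr6:34709444-34775469, mm10), caldesmon, which restrains the actin-myosin interaction and has muscle and nonmuscle isoforms, was the exception among the thin filament genes. It had 23, 57, 37, 24 and 37 FPKM in the cancers against 11, 10 and 9 in the controls, and every cancer was above every control. Its mean rose from 10 ± 1 (SD, n = 3) to 35.6 ± 13.7 FPKM (SD, n = 5), a log2 fold change of 1.66 (SE 0.29, limma adjusted p = 0.0060). Cald1 and Fhl1 were the only 2 contractile genes called when any single library was left out and under every other scale and filter. Only the fit with a replicate block, whose difference rests on cancers 1 to 3 and the controls, ended these calls (limma adjusted p = 0.069 for Cald1 and 0.12 for Fhl1).

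**Figure D2:**
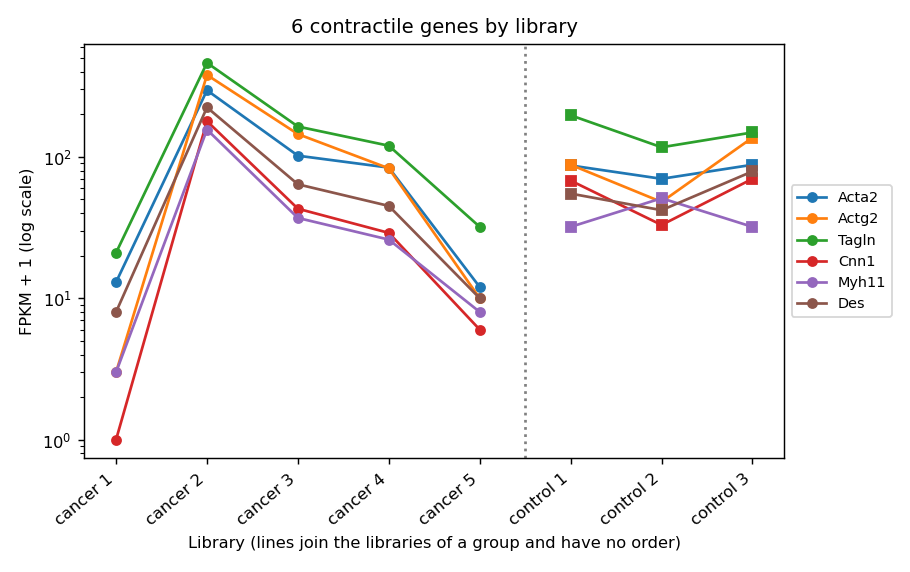
FPKM + 1 on a log axis of 6 smooth muscle genes in each of the 5 cancers (circles) and 3 controls (squares), with lines that join the libraries of a group and have no order. All 6 genes are highest in cancer 2 and lowest in cancers 1 and 5, which lie below the controls, and cancers 3 and 4 lie near the controls.

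Of the 5 genes for myosin and its switch, 1 was lower in the cancers. Myh11 (chr16:14194527-14291408, mm10), the smooth muscle myosin heavy chain, had 2, 155, 36, 25 and 7 FPKM in the cancers against 31, 50 and 31 in the controls. Its mean was 45 ± 63 FPKM (SD, n = 5) against 37.3 ± 11 FPKM (SD, n = 3), and its log2 fold change of -0.87 (SE 1.15, limma adjusted p = 0.58) lay within the spread. Myl9, its regulatory light chain, was at 8, 322, 98, 96 and 14 in the cancers and at 146, 116 and 101 in the controls. Mylk, the kinase that phosphorylates this light chain, was at 3, 54, 12, 12 and 3 in the cancers and at 14, 14 and 13 in the controls. For all 3 genes the highest cancer and the lowest cancer lay on opposite sides of the controls.

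The genes on the phosphatase side were low. Ppp1r12b, a targeting subunit of myosin phosphatase, had 1, 4, 1, 1 and 2 FPKM in the cancers against 1, 2 and 2 in the controls. Ppp1r14a (CPI-17), an inhibitor of that phosphatase in smooth muscle, was at 1, 4, 2, 3 and 2 in the cancers and at 7, 6 and 8 in the controls, below every control in every cancer. It was lower in the cancers (log2 fold change -1.29, SE 0.29, limma adjusted p = 0.014). The call was lost with TPM (log2 fold change -0.59, limma adjusted p = 0.12) and by a small margin without control 1 or control 3 (adjusted p = 0.053 and 0.055 from limma).

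The 10 genes of dense bodies, Z-line and adhesion held 2 of the higher genes and 1 of the lower. Actn1, alpha-actinin, which crosslinks actin, had 26, 52, 37, 33 and 34 FPKM in the cancers against 18, 22 and 20 in the controls, with no overlap. Its mean of 36.4 ± 9.61 FPKM (SD, n = 5) compared with 20 ± 2 FPKM (SD, n = 3), a log2 fold change of 0.80 (SE 0.21, limma adjusted p = 0.024). The size was similar in each reduced set, but the adjusted p was 0.055 without cancer 3 and 0.091, 0.059 and 0.072 without control 1, 2 or 3 (limma). Ldb3, a Z-line protein of striated muscle that binds alpha-actinin, was listed at 0 in all controls and at 2, 1, 4, 1 and 5 in the cancers. It was called higher (limma adjusted p = 0.017), but the adjusted p was 0.059, 0.056 and 0.056 without control 1, 2 or 3 and 0.055 with quantile normalization (limma). A fold change is not given for Ldb3, because the control value is 0, and the gene entered the test only through the cancers.

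Fhl1 (chrX:56731787-56793346, mm10), a LIM-only protein abundant in muscle, had the largest fall on log2(FPKM + 1) among the contractile genes past the threshold. It had 46, 114, 63, 81 and 59 FPKM in the cancers against 263, 161 and 242 in the controls, and every cancer was below every control. Its mean was 72.6 ± 26.3 FPKM (SD, n = 5) against 222 ± 53.9 FPKM (SD, n = 3), a log2 fold change of -1.64 (SE 0.31, limma adjusted p = 0.0076). With TPM it was -0.67 and still past the threshold (limma adjusted p = 0.031).

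The remaining 7 genes of this group were not past the threshold. Csrp1, a LIM protein of smooth muscle, had 34, 186, 59, 69 and 70 FPKM in the cancers against 149, 128 and 269 in the controls. Vcl, vinculin, which links actin to adhesion plaques, was at 11, 29, 16, 20 and 14 in the cancers and at 31, 33 and 27 in the controls. Pdlim7, a PDZ and LIM protein, was at 4, 29, 9, 16 and 10 in the cancers and at 31, 20 and 28 in the controls. In these 3 genes 4 of the 5 cancers lay below every control, and only cancer 2 reached into the control range. Without cancer 2 each was called lower, with log2 fold changes of -1.61 for Csrp1 (adjusted p = 0.016), -0.97 for Vcl (adjusted p = 0.014) and -1.45 for Pdlim7 (adjusted p = 0.035), all from limma.

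Flna, filamin A, which crosslinks actin and binds integrins, was at 18, 93, 27, 29 and 16 in the cancers and at 22, 30 and 24 in the controls. Pdlim3, which binds alpha-actinin, was at 1, 36, 6, 9 and 2 in the cancers and at 8, 9 and 7 in the controls. Pgm5, aciculin, was at 0, 10, 2, 3 and 2 in the cancers and at 4, 4 and 3 in the controls. Cancer 2 exceeded every other library in these 3 genes. Synpo2, which binds actin in muscle, was at 8 in cancer 2 and at 1 in each of the other cancers, with 2, 3 and 2 in the controls. It was called lower without cancer 2 (log2 fold change -0.72, limma adjusted p = 0.0097), a difference that for values of 1 to 3 rests on single steps of the rounding.

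The intermediate filament genes had no call and among the cancers were also highest in cancer 2 and lowest in cancers 1 and 5. Des (chr1:75360344-75367715, mm10), desmin, the muscle intermediate filament, had 7, 223, 63, 44 and 9 FPKM in the cancers against 54, 41 and 78 in the controls. Its mean was 69.2 ± 89.2 FPKM (SD, n = 5) against 57.7 ± 18.8 FPKM (SD, n = 3), and the adjusted p was 0.62 (log2 fold change -0.70, SE 1.06, limma). Synm, synemin, which joins desmin filaments to adhesions, was listed at 0 in cancer 1 and was at 22, 5, 5 and 2 in cancers 2 to 5, with 9, 11 and 7 in the controls. Myom1, myomesin of the striated M-band, was at 3 in cancer 2, at 1 in cancers 3 and 4 and in all controls, and listed at 0 in cancers 1 and 5.

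The small heat shock proteins, chaperones of actin and desmin filaments, followed this pattern in part. Hspb8 and Hspb6 departed from it, while Cryab and Hspb7 were highest in cancer 2 and lowest in cancers 1 and 5. Hspb8 had 16, 32, 20, 24 and 51 FPKM in the cancers, highest in cancer 5, and 11 in each control. It was higher in the cancers (log2 fold change 1.19, SE 0.34, limma adjusted p = 0.032), and the groups did not overlap. The adjusted p was 0.057 without cancer 2 and between 0.090 and 0.094 without any 1 control (limma). Hspb6 was at 6, 12, 12, 6 and 6 in the cancers and at 6, 4 and 5 in the controls, and passed the threshold with TPM (log2 fold change 1.49, limma adjusted p = 0.0051) but not on the deposited scale (0.59, limma adjusted p = 0.14). Cryab, alpha B-crystallin, was at 3, 13, 9, 12 and 3 against 11, 17 and 17, and Hspb7 at 0, 3, 2, 2 and 1 against 1 in each control, and neither was past the threshold.

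The calcium store genes had low levels, at most 9 FPKM in any library. Casq2, calsequestrin, which buffers calcium in the store, was at 1 in cancer 2, listed at 0 in the other 4 cancers, and at 2, 1 and 1 in the controls. It was called lower (limma adjusted p = 0.032) on steps of single FPKM, and lost the call without any 1 of 7 libraries, all but cancer 2 (adjusted p between 0.054 and 0.12 from limma) and with TPM (adjusted p = 0.084). Among the cancers only cancer 2 reached FPKM 1, so Casq2 passed the filter through the controls. Pln, phospholamban, which restrains the calcium pump, was at 7 in cancer 2, at 1 in cancer 4 and listed at 0 in cancers 1, 3 and 5, with 2, 4 and 4 in the controls. Without cancer 2 it was called lower (log2 fold change -1.83, limma adjusted p = 0.0087). The deposited locus of Pln spans 101.771 kb, against 8.314 kb for the gene in RefSeq. Jph2, which ties the store to the cell membrane, was at 0, 9, 3, 4 and 1 in the cancers and at 3, 2 and 4 in the controls. Myocd, myocardin, the coactivator of this gene program, was listed at 1 in cancer 2 and at 0 elsewhere and was not tested.

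**Figure D3:**
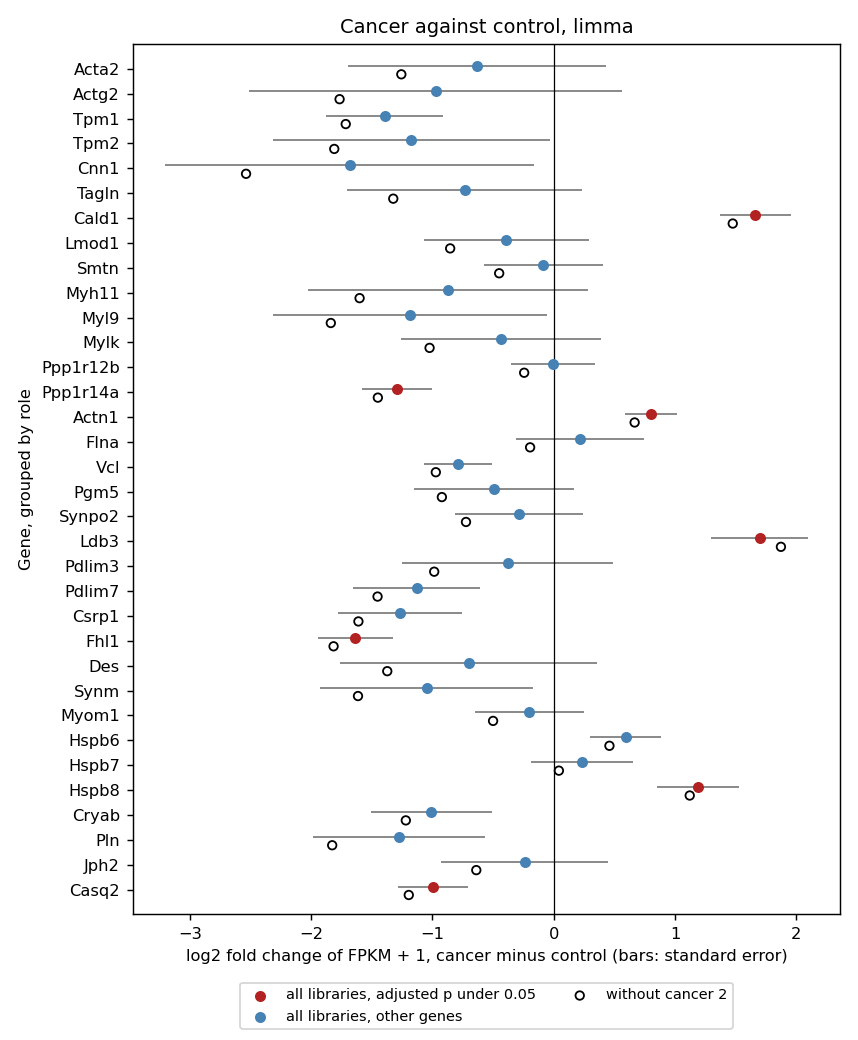
Log2 fold change of FPKM + 1, cancer minus control, of the 34 contractile genes tested with limma in all 8 libraries (filled points, bars are standard errors, red where the adjusted p was under 0.05) and without cancer 2 (open circles). Without cancer 2 all points but that of Ldb3 lie further to the left, and 4 of the 7 red points lie to the right of 0. Controls of Ldb3 are listed at 0, so its point depends on the 1 added to each value.

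The clearest pattern in these genes was a difference among the cancers. Cancer 2 exceeded each of the other 4 cancers in 31 of the 34 genes tested (91.2%), where it did so in 16.1% of all genes tested. The exceptions were Hspb6, tied with cancer 3, and Hspb8 and Ldb3, both highest in cancer 5. Cancers 1 and 5 were each below cancers 2, 3 and 4 in 21 of the 34 genes, and in 7.01% of all genes tested. The mean log2(FPKM + 1) over the 35 genes was 2.13, 5.01, 3.70, 3.68 and 2.80 in cancers 1 to 5 and 3.93, 3.83 and 3.98 in controls 1 to 3. On this scale the controls lay within 0.15 of each other and the cancers spanned 2.88. The median SD between cancers was 0.96 over the contractile genes tested and 0.41 over all genes tested, whereas between controls it was 0.25 and 0.22. Genes share each library, so these counts describe 5 cancers and are not independent.

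By role, the lead of cancer 2 was more complete than the low place of cancers 1 and 5. Cancer 2 was highest in 9 of 9 thin filament genes, 5 of 5 myosin genes, 3 of 3 intermediate filament genes and 3 of 3 calcium store genes. It was highest in 9 of 10 dense body and adhesion genes and 2 of 4 small heat shock protein genes. Cancers 1 and 5 were both below the other 3 in 8 of 9 thin filament, 3 of 3 intermediate filament and 3 of 5 myosin genes, in 4 of 10 dense body and adhesion genes, in 2 of 4 small heat shock protein genes and in 1 of 3 calcium store genes. The summed FPKM of the thin filament genes was 151, 1989, 726, 611 and 234 in the cancers against 1052, 748 and 1023 in the controls. For the myosin genes the sums were 15, 539, 149, 137 and 28 against 199, 188 and 155.

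Without cancer 2, 3 of the 34 contractile genes were higher and 9 lower, against 17.4% and 19.6% of all genes tested, and the median log2 fold change was -1.11. The 9 lower genes were Fhl1, Ppp1r14a, Casq2, Tpm1, Vcl, Csrp1, Pdlim7, Pln and Synpo2, and the 3 higher were Cald1, Actn1 and Ldb3. Of these, Casq2 and Pln entered the test only through the controls and Ldb3 only through the cancers. In the cancers left, Casq2 was listed at 0 throughout and Pln at 0 in all but cancer 4. Acta2 (log2 fold change -1.26, adjusted p = 0.29), Actg2 (-1.77, adjusted p = 0.34), Myh11 (-1.60, adjusted p = 0.19) and Des (-1.37, adjusted p = 0.22) were still not past the threshold in limma. Without cancer 1 the median was -0.15, and without cancer 5 it was -0.31. Leaving out control 1, 2 or 3 left 2, 3 or 2 contractile genes called, while the calls over all genes fell from 4948 to 2490, 2643 and 2815.

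Marker genes of other cell types also differed between these libraries, and their counts below stand against 16.2% higher and 18.3% lower of all genes tested. Skeletal muscle genes were nearly absent, with 13 of 22 listed at 0 in every library, among them Myog, Ttn, Myh1, Myh2 and Myh4, and 0 of the 4 tested called, and summed to between 3 and 26 FPKM in the cancers and between 15 and 22 in the controls. The 10 fibroblast genes summed to 268, 395, 362, 270 and 71 FPKM in the cancers against 170, 182 and 85 in the controls, with 1 of 10 higher. The 8 pericyte genes summed to 62, 38, 45, 33 and 23 FPKM in the cancers against 19, 26 and 21 in the controls. Of these, 3 of 8 were higher, Pdgfrb, Kcnj8 and Higd1b, and each lost the call without any 1 control (limma adjusted p between 0.053 and 0.12). Kcnj8 also lost it without cancer 2, 4 or 5 (limma adjusted p between 0.054 and 0.060) and Higd1b without cancer 1, 2, 3 or 4 (between 0.070 and 0.088). Higd1b was listed at 0 in every control and entered the test only through the cancers, so it could only be higher. Rgs5, the most abundant pericyte gene, had 40, 13, 24, 8 and 3 FPKM in the cancers against 11, 11 and 3 in the controls and was not past the threshold. Cancer 1 had the highest pericyte sum, where Rgs5 alone gave 40 of 62 FPKM, and the lowest sum of contractile genes, 341 FPKM against 3412 in cancer 2. The pericyte lead of cancer 1 over cancer 2 thus rests on Rgs5.

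Endothelial genes summed to between 18 and 60 FPKM in the cancers and between 9 and 15 in the controls, with 5 of 8 higher and the highest sum in cancer 1. Of these, Cdh5 and Emcn lost the call without any 1 control, and Pecam1 without control 1 or 3. Emcn also lost it without cancer 1, 2, 3 or 4 (limma adjusted p between 0.074 and 0.097) and with quantile normalization (0.088). Of the 3 genes of interstitial cells of Cajal, the pacemakers of the gut muscle, 2 were higher, Etv1 and Kit. The call of Kit (limma adjusted p = 0.044) was lost without any 1 control (between 0.076 and 0.15) and without cancer 1, 3 or 5 (between 0.055 and 0.087). Ano1, named after its values were seen, had 1, 28, 2, 9 and 13 FPKM in the cancers against 25, 25 and 31 in the controls (log2 fold change -1.89, limma adjusted p = 0.11). Etv1 alone had between 27 and 115 FPKM in the cancers and 1 in each control, and the 3 genes had sums between 71 and 143 FPKM in the cancers and between 33 and 45 in the controls. Of the 5 genes of enteric glia, 2 could be tested and 0 were called, with sums of at most 5 FPKM. Of 9 heart muscle genes, 4 were listed at 0 in every library and 0 of the 5 tested were called, with sums between 3 and 98 FPKM in the cancers and between 94 and 202 in the controls. In the controls and in cancers 2 and 4 most of the sum was Tnni3, at 0, 68, 7, 84 and 5 FPKM in the cancers and at 80, 147 and 182 in the controls. Gastric gland genes summed to 1008, 78983, 6403, 55914 and 17228 FPKM in the cancers and to between 158671 and 240915 in the controls, with 1 of 10 higher, Epcam, and 1 lower, Gkn1. In these sums Pgc was listed at 28832 FPKM in control 1 but at 0 in controls 2 and 3, and at 3, 4546, 581, 6762 and 468 in the cancers. Squamous genes summed to 1, 17, 365, 1635 and 607 FPKM in the cancers and to between 2138 and 3695 in the controls, with 2 of 6 lower, Lor and Krt4. Gkn1, Lor and Krt4 lost their calls without any 1 control (limma adjusted p between 0.075 and 0.12). Cancer 2 was thus the cancer with the highest contractile and the highest gland gene sums and had a squamous sum of only 17 FPKM. The part of cell type content in the contractile gene levels was not tested.

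**Figure D4:**
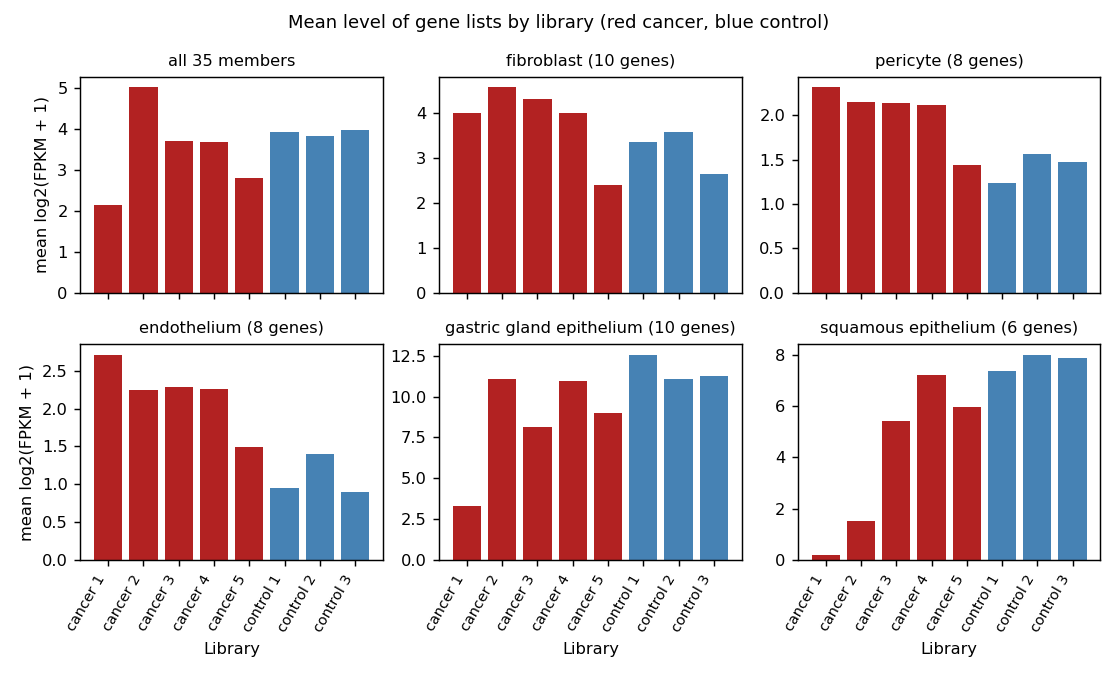
Mean log2(FPKM + 1) of the 35 contractile genes and of 5 marker lists in 5 cancers (red bars) and 3 controls (blue bars), 1 library per bar. The contractile genes are highest in cancer 2 and lowest in cancer 1, whereas pericyte and endothelial genes are highest in cancer 1, and squamous genes are lowest in cancer 1, at 0.17, and next in cancer 2, at 1.51. The pericyte lead of cancer 1 rests on Rgs5, at 40 FPKM in cancer 1 and 13 in cancer 2.

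To compare genes inside a library, where the scaling between libraries nearly cancels, 6 ratios were formed. None differed between the groups past the threshold in an exact permutation test, two-sided, over 56 splits, for which the smallest possible p is 0.018. Des over Vim, muscle against mesenchymal intermediate filament, had log2 ratios of -2.95, 1.56, -0.17, -0.42 and -0.93 in the cancers against 2.08, 0.93 and 2.30 in the controls. Only cancer 2 reached the range of the controls (exact p = 0.089, adjusted over 6 ratios p = 0.54). Vim itself was higher in the cancers, with FPKM of 61, 75, 71, 59 and 18 against 12, 21 and 15 (log2 fold change 1.65, SE 0.47, limma adjusted p = 0.030), a call lost without any 1 control (adjusted p between 0.059 and 0.11 from limma) and without cancer 1, 2, 3 or 4 (between 0.054 and 0.070).

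Visceral over vascular type actin, Actg2 over Acta2, had log2 ratios between -0.26 and 0.51 in cancers 2 to 5 and between -0.54 and 0.64 in the controls, but -2.12 in cancer 1. Smooth muscle over nonmuscle myosin heavy chain, Myh11 over Myh9, ran from -4.70 in cancer 1 to 1.10 in cancer 2, with the controls between -1.55 and -0.91. Calponin 1 over calponin 3, Cnn1 over Cnn3, had a mean of -2.13 ± 2.82 (SD, n = 5) in the cancers and -1.61 ± 0.84 (SD, n = 3) in the controls. Tpm2 over the nonmuscle Tpm4 ran from -5.09 to 0.09 in the cancers and from -1.94 to -1.28 in the controls. In these 3 ratios to a nonmuscle counterpart the order of the cancers was the same, 2, 3, 4, 5 and 1 from high to low. Myh11 over Acta2 was steadier, between -2.12 and -0.58 in the cancers and between -1.46 and -0.46 in the controls. The adjusted exact p was 0.80 for each of these 5 ratios.

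**Figure D5:**
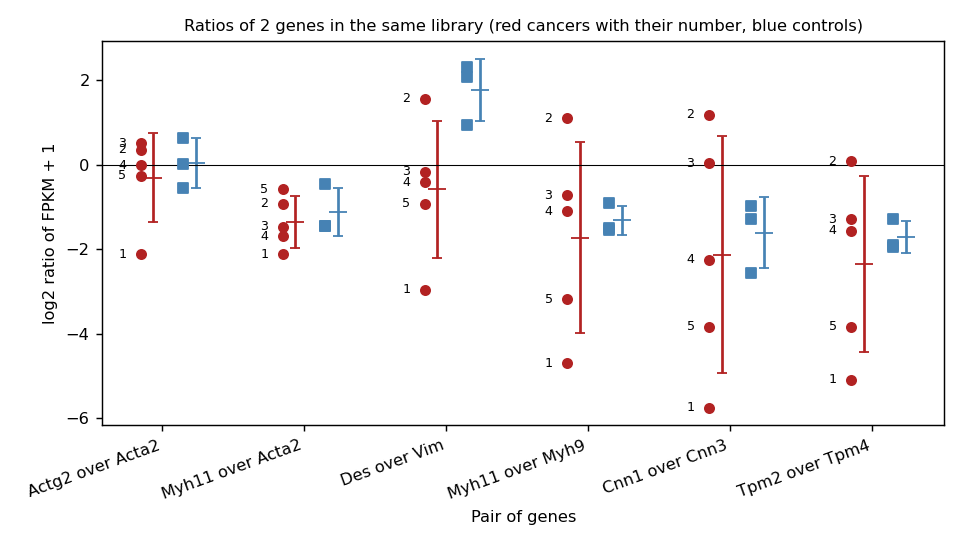
Log2 ratio of FPKM + 1 between the genes of 6 pairs in each of 5 cancers (red, with the number of the cancer) and 3 controls (blue), with the mean and SD beside the points. Myh11 over Acta2 varies least between cancers, and the ratios to Myh9, Cnn3 and Tpm4 run from cancer 2 at the top to cancer 1 at the bottom.

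Of the 16 nonmuscle counterparts of the contractile genes, 2 were higher in the cancers and 8 lower, where 16.2% and 18.3% of all genes tested were. Their median log2 fold change was -1.04, with 13 of 16 negative, against -0.67 for the contractile genes. Cancer 2 was the highest cancer in 11 of the 16 (68.8%), against 16.1% of all genes tested, and cancers 1 and 5 were the lowest in 2 of the 16. The lower genes included Actg1, cytoplasmic gamma actin, at 473, 1420, 613, 1107 and 799 FPKM in the cancers against 2917, 2330 and 2160 in the controls (log2 fold change -1.58, SE 0.39, limma adjusted p = 0.019). Myh10, a nonmuscle myosin heavy chain, was higher, at 12, 4, 11, 4 and 11 against 1, 2 and 1 (log2 fold change 1.91, SE 0.41, limma adjusted p = 0.012). With TPM none of the 16 was lower, and without control 1 none was called in either direction.

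Genes that act on the contractile apparatus were followed in 5 further lists of 75 genes, of which 67 were tested, 13 were higher and 10 lower, near the 16.2% and 18.3% of all genes tested. With TPM 29 were higher and 2 lower. Cancer 2 was highest of the cancers in 31 of the 67, against 31 of 34 contractile genes and 16.1% of all genes tested. Of the 12 calcium and potassium channels and pumps tested, 7 were called higher and 1 lower. Of the 7, Cacna1c, Cacna1h, Cacnb2 and Trpc4 were listed at 0 in every control and entered the test only through the cancers, so the count does not describe the list as a whole. With a mean FPKM of at least 5, 4 genes of all 5 lists were higher. Cacnb2, a calcium channel beta subunit, was at 5, 3, 5, 4 and 6 in the cancers and listed at 0 in the controls, and Kcnma1, the large-conductance potassium channel, was at 6, 3, 5, 3 and 10 against 1, 1 and 0. Among the cancers both were lowest in cancer 2, where most contractile genes were highest, Kcnma1 in a tie with cancer 4. Channel genes are also known from nerve and endocrine cells.

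Among 12 receptor and cyclic nucleotide genes, 2 were higher and 1 lower. The lower gene was Chrm3, the muscarinic receptor through which acetylcholine contracts gut muscle, at 0, 2, 1, 1 and 1 in the cancers against 4, 5 and 4 in the controls (log2 fold change -1.49, SE 0.32, limma adjusted p = 0.012), with an adjusted p of 0.051 without control 2, 0.081 with TPM and 0.070 with a pseudocount of 0.1. Of 10 kinase and phosphatase genes, 3 were lower and 0 higher, and with TPM all 3 turned positive. Ppp1r12a, the main targeting subunit of myosin phosphatase, was at 11, 9, 9, 7 and 11 against 20, 19 and 14 (log2 fold change -0.84, SE 0.19, limma adjusted p = 0.013), with an adjusted p of 0.057 without control 1 and 0.055 without control 2, and the log2 fold change was 0.06 with TPM. The other two were Rock2, a kinase that inhibits myosin phosphatase, and Rhoa, the GTPase that activates this kinase. With TPM the log2 fold change of Rock2 was 0.31 (limma adjusted p = 0.37), and that of Rhoa was 0.45 and past the threshold as higher (limma adjusted p = 0.048). Both calls were lost with quantile normalization, at -0.39 for Rock2 and -0.0060 for Rhoa, and without any 1 control, and also without cancer 2, 4 or 5 for Rock2 and without cancer 1, 3, 4 or 5 for Rhoa.

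Of 11 transcription factor genes, 3 were lower and 0 higher. Mkl1, a coactivator of serum response factor, was at 6, 8, 6, 5 and 6 in the cancers against 13, 10 and 17 in the controls (log2 fold change -0.98, SE 0.20, limma adjusted p = 0.0099). With TPM the log2 fold change of Mkl1 was -0.10 (limma adjusted p = 0.72). Klf4, which represses smooth muscle genes in cultured cells and is abundant in gastric epithelium, was at 15, 93, 28, 46 and 57 against 318, 209 and 252 (log2 fold change -2.64, limma adjusted p = 0.0097). Srf, serum response factor itself, was at 10, 13, 11, 8 and 10 against 10, 10 and 13 and is named here after its values were seen, as is Barx1, a stomach mesenchyme factor. Barx1 had 1, 23, 8, 12 and 4 FPKM in the cancers against 9, 6 and 9 in the controls, with cancer 2 highest and cancers 1 and 5 lowest as for the contractile genes. Of 22 adhesion, caveolae and dystrophin complex genes, 4 were higher and 2 lower, among them Sgce, epsilon-sarcoglycan, at 31, 18, 44, 19 and 28 against 5, 7 and 4 (log2 fold change 2.15, SE 0.31, limma adjusted p = 0.0032).

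Many smooth muscle promoters hold a CArG box, the site of serum response factor, and the promoters of the contractile genes were therefore read. RefSeq windows of 300 bases on GRCm38.p6, with 250 bases before and 50 after the start, were found for 30 of the 35 genes, 37 windows in all, the exceptions being Myocd, Tagln, Myh11, Cryab and Actg2. The CArG box, of 10 letters and read on both strands, was present in 5 of the 30 (16.7%) and in 1.81% of 27025 genes with a window. A looser form with 1 G or C among the 6 central letters, counted together with the box, was present in 10 of 30 (33.3%) and in 11.3% of all genes. The boxes are shown in capitals in 150 bases upstream of a RefSeq start, for the 5 genes with a full box and for Acta2, whose pair of boxes has the looser form. Myl9 also holds 1 looser box.
Acta2: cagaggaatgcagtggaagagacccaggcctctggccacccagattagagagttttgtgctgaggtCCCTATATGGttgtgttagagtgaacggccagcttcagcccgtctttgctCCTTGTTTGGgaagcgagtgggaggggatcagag
Myl9: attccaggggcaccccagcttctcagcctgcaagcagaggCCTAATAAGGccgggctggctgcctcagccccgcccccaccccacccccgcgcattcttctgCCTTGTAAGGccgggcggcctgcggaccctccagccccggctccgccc
Vcl: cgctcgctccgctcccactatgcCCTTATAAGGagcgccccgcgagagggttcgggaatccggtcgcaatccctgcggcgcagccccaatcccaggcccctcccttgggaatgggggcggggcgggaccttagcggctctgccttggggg
Fhl1: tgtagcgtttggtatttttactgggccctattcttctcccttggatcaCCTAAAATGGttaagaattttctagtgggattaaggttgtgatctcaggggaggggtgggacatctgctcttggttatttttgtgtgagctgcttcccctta
Ldb3: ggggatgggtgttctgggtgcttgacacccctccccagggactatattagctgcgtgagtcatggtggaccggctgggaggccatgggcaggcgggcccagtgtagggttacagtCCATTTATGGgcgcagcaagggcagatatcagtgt
Myom1: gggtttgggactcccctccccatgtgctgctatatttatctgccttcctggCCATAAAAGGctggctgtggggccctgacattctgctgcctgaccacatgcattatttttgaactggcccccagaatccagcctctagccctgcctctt
These stretches lie at chr19:34255374-34255523 on the minus strand for Acta2, chr2:156775263-156775412 on the plus strand for Myl9 and chr14:20929148-20929297 on the plus strand for Vcl. Those of Fhl1, Ldb3 and Myom1 lie at chrX:56779533-56779682 on the plus strand, chr14:34588682-34588831 on the minus strand and chr17:71019407-71019556 on the plus strand. The Fhl1 stretch belongs to an alternative start inside the gene, which begins at chrX:56731209 in RefSeq and at chrX:56731787 in the deposited locus. The 5 genes with a full box did not share a pattern. Fhl1 was lower and Ldb3 higher in the cancers, and Myl9, Vcl and Myom1 were not past the threshold. Cancer 2 was the highest cancer in all but Ldb3. A match of letters is not a bound site, and binding was not measured.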

How the data were processed

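RNA was extracted with the mirVana kit from 5 SCJ cancers and 3 control SCJ. Per the labels, directional libraries were made with NEBNext after polyA selection, whereas the study's methods name another kit. Per the submitters' processing notes the tools were cutadapt 1.8, TopHat2 2.0.13 and Cuffnorm 2.2.1 on mm10, and the normalization option and strand setting are not given in the sources used here. The deposited values are FPKM that the authors rounded to whole numbers, which were handled as a score, since they are no read counts, and depth is unknown. Column headers were matched to sample titles.

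Genes that reached FPKM 1 in at least 3 libraries were fitted on log2(FPKM + 1), with a pseudocount of 1, in limma 3.58.1 (lmFit, eBayes with trend; R 4.3.3), with Benjamini-Hochberg adjustment over all 14357 genes. For ratios an exact permutation test, two-sided, over 56 splits was used (Python 3.11.15). The numbers of cancers and controls were not shared by animal, and the deviations of same-numbered samples correlated at -0.02, -0.19 and -0.10, so the numbers did not pair samples and the block was used only as an alternative. In the block fit the difference rests on cancers 1 to 3 and the controls, the numbers that both groups have. Calls lost with the block are therefore not losses over the same set of samples. The other alternatives were a pseudocount of 0.1, no filter, a mean FPKM of at least 5, TPM, quantile normalization, no trend, array weights and leaving out each library.

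The genes and lists were chosen with earlier results of these data known. All 35 contractile genes are named. Of each other list, at most 3 genes past the threshold with the largest change were eligible, or the most abundant gene, and the genes of the 6 ratios, Trp53 and Rb1 were added. Srf, Barx1, Ano1, Cacna1c, Trpc4 and the skeletal muscle genes listed at 0 were named after their values were seen. Promoter windows and gene positions came from RefSeq (GRCm38.p6) and transcripts from GENCODE M21.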

Additional observations from a re-analysis of the deposited data

Results flagged for a closer look

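Among the 5 cancers, 65 results (35 genes, the mean levels of the gene lists and the 6 ratios) were checked for 1 sample far from the others by Dixon's test at 95%, which by chance marks about 1 in 20, or 3.25 of 65. It marked 8, which share genes and libraries. Cancer 2 stood apart in Synpo2, at a log2(FPKM + 1) of 3.17 with 1 in each other cancer, and in Casq2 and Myocd, each at 1 with 0 in the others. A level of 1 on this scale is an FPKM of 1. The coactivator group held only Myocd and therefore repeats its value of 1. Cancer 2 was also apart in the mean of the adhesion, caveolae and dystrophin complex genes, at 3.47 with the others between 2.90 and 2.99, and in the mean over the 5 pathway lists, at 2.85 with the others between 2.43 and 2.51. Cancer 5 stood apart at the low end in the pericyte genes, at 1.45 with the others between 2.12 and 2.32, and in the fibroblast genes, at 2.39 with the others between 4.01 and 4.57. Cancer 1, the lowest for most contractile genes, was not marked in any.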

How the results depend on the processing

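Over all alternatives the contractile genes gave 533 values, of which 457 kept direction and side of the threshold, 30 lost and 15 gained a call, and 31 changed sign, 14 of them with TPM. The cause was not tested. Rounded FPKM and unknown depth limit all genes near 1, and 3 controls limit every call.

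All genes past the threshold numbered 4948 (2326 higher, 2622 lower). The number was 7704 with TPM (7176 and 528), 8148 with array weights (3909 and 4239) and 1534 with the replicate block (982 and 552). With a mean FPKM of at least 5, 1244 were higher. Leaving out 1 library gave 2490 (without control 1) to 5252 (without cancer 2), 1369 to 2466 higher and 1121 to 2786 lower. Of the contractile genes, the block called 0 higher and 0 lower, TPM 1 lower and array weights 9 lower, and leaving out 1 library gave 1 to 4 higher and 1 to 9 lower. The block changed no direction but those given below. Of the pathway genes, 4 were higher with a mean FPKM of at least 5, 29 higher and 2 lower with TPM, and 8 higher and 0 lower with the block, and leaving out 1 library gave 8 to 14 higher and 4 to 12 lower. Of the nonmuscle counterparts, 0 were lower with TPM, 4 with quantile normalization, 13 with array weights and 0 with the block, which left 1 higher, and leaving out 1 library gave 0 to 3 higher and 0 to 11 lower. Of 31 called genes of other lists that were eligible to be named, not all of which are, 21 lost the call without at least 1 of the controls, 11 without at least 1 of the cancers, 7 of them without cancer 2, and 24 with the block.

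With TPM the log2 fold change turned to 0.32 for Acta2, 0.23 for Tagln, 0.15 for Lmod1, 0.79 for Smtn, 0.016 for Myh11, 0.43 for Mylk, 0.65 for Ppp1r12b, 0.15 for Vcl, 0.079 for Pgm5, 0.33 for Synpo2, 0.40 for Pdlim3, 0.23 for Des, 0.12 for Myom1, 0.32 for Jph2, 0.86 for Trp53, 0.063 for Ppp1r12a, 0.31 for Rock2 and 0.45 for Rhoa, all but Trp53 below the TPM median of 0.81 over all genes, with Trp53 and Rhoa past the threshold as higher. With the block Smtn was 0.19 and Ppp1r12b 0.051, with array weights Flna was -0.066 and Dcn -0.00016, with quantile normalization Hspb7 was -0.053 and Trp53 0.13, and with a pseudocount of 0.1 Hspb7 was -0.020. Leaving out 1 library moved Lmod1 from -0.85 to 0.011, Smtn from -0.45 to 0.10, Ppp1r12b from -0.24 to 0.089, Flna from -0.19 to 0.42, Pdlim3 from -0.99 to 0.067, Jph2 from -0.64 to 0.19, Trp53 from -0.29 to 0.027 and Dcn from -0.074 to 0.47. The difference in log2 ratio ran from -0.63 to 0.11 for Actg2 over Acta2, -0.43 to 0.10 for Myh11 over Acta2, -1.11 to 0.34 for Myh11 over Myh9, -1.35 to 0.39 for Cnn1 over Cnn3 and -1.23 to 0.060 for Tpm2 over Tpm4, with cancer 1 left out at the upper end of all but Myh11 over Acta2.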
